A study of Mus musculus with 36 samples.

Results

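Leukocytes leave the blood through a chain of adhesion molecules on the vessel wall and their partners on the leukocyte, and 10 genes of this chain were examined in the mouse colon: Vcam1, Icam1, Icam2, Madcam1, Sele, Selp, Itga4, Itgb7, Itgae and Itgb2. A gene was measured by a probe set (the group of array probes read out together) that the platform annotation assigns to that gene alone. Of the 10 genes, 9 had exactly 1 such probe set among 28853, and 19938 genes had at least 1 in all. Selp, which encodes P-selectin, matched none by symbol or gene ID and is not analysed here.

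RNA from the distal colon of 36 mice was hybridized to 1 array per animal. The labels put 9 mice in Control, 7 in a group given scrambled siRNA, 6 in siTNF (an unmodified siRNA against Tnf, the gene of tumour necrosis factor), 6 in siTNF-OMe (the siRNA with O-methyl nucleotides) and 8 in siTNF-OMe-P (with O-methyl-propanediol nucleotides). The siRNAs were given into the rectum. The labels list 5% dextran sulfate sodium (DSS), which injures the colon epithelium, for all 36 animals with Control among them. Since the design text mentions siRNA-dosed groups alone, the treatment of Control is open to doubt, and a difference from Control cannot be assigned to DSS, to dosing or to the siRNA. The labels give no strain, age, sex, dose or time, and they do not say whether animals were littermates.

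In the recruitment of leukocytes, selectins such as Sele (E-selectin) on activated endothelium slow passing cells so that they roll. Integrins on the leukocyte then bind ligands of the immunoglobulin family on the endothelium: the alpha 4 chain (Itga4) pairs with the beta 1 chain to bind Vcam1 or with the beta 7 chain (Itgb7) to bind Madcam1, the ligand that marks gut vessels. The beta 2 chain (Itgb2) forms the integrins that bind Icam1 and Icam2, and the alpha E chain (Itgae) pairs with beta 7 to hold lymphocytes at E-cadherin on the epithelium. Vcam1, Icam1 and Sele are known to be induced in endothelial cells by tumour necrosis factor through the transcription factor NF-kB, whereas Icam2 is known for a steady level on resting endothelium.

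Promoter sequences show 3 members that rose in all 4 dosed groups (Icam1, Madcam1 and Itga4) beside 2 that did not pass the test in any (Sele and Itgb7). RefSeq promoters of the GRCm38.p6 build matched 6 of the 10 genes. Those of Vcam1, Icam2, Itgae and Itgb2 were not matched, and that of Selp, which is not analysed here, is not printed. The 250 bases before the start of each gene are printed 5′ to 3′ on the strand of the gene, and capitals mark a searched motif: GGAANTTCC, the NF-kB consensus, the TATA box TATAAA or the RUNX core TGTGGT, each on either strand. GGAANTTCC can overlap the NF-kB consensus.
Icam1: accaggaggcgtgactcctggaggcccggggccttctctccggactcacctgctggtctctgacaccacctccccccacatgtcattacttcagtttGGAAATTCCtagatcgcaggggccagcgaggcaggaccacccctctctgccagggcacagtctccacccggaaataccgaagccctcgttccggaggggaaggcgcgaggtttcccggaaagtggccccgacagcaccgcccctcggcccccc
Madcam1: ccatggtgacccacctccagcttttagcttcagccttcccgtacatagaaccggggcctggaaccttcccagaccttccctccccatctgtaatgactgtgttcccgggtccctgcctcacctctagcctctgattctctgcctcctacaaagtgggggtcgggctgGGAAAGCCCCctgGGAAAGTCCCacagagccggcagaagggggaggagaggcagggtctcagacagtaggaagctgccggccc
Sele: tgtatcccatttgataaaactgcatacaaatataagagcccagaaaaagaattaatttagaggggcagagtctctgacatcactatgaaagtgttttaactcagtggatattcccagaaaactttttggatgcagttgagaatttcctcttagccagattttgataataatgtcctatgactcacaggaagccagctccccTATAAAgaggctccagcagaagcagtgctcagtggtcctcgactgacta
Itga4: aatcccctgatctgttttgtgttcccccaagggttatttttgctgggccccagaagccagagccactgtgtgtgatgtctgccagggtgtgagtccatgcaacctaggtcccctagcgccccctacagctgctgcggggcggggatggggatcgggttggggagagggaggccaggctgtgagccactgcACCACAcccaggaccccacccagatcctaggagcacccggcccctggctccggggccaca
Itgb7: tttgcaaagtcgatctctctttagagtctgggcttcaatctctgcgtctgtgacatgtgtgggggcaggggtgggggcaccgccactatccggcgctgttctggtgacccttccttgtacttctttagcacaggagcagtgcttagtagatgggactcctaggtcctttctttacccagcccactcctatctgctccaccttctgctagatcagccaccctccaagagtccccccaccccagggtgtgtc

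The Icam1 window (chr9:21015690-21015939, plus strand) held 1 match to GGAANTTCC, 153 to 145 bases before the start, and 0.813% of 32851 promoter windows of this length held that motif. The Madcam1 window (chr10:79664309-79664558, plus strand) held 2 matches to the NF-kB consensus, both on the opposite strand, at 83 to 74 and at 70 to 61 bases before the start, against 3.9% of windows with at least 1. The Sele window (chr1:164047984-164048233, plus strand) held TATAAA 49 to 44 bases before the start, as did 12.4% of windows somewhere in their length. The Itga4 window (chr2:79255176-79255425, plus strand) held TGTGGT on the opposite strand at 60 to 55 bases, as did 14% of windows. In the Itgb7 window (chr15:102231936-102232185, minus strand) none of the 4 motifs was found. A match is a string of letters and was not tested as a site. A window without a match can hold sites that differ from the searched strings, so no window was shown to lack NF-kB sites.

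The first question was how the members differed between the siRNA-dosed mice and Control. Vcam1, Madcam1, Icam1, Itga4 and Itgb2 rose in each of the 4 dosed groups, by between 0.48 and 1.81 on the log2 scale (1.39-fold to 3.52-fold). Icam2 rose in siTNF-OMe-P alone among the 4 groups, and Sele, Itgb7 and Itgae did not pass the test in any of them. So 5 of 9 measured members rose in scrambled, 5 in siTNF, 5 in siTNF-OMe and 6 in siTNF-OMe-P, and 0 fell in any. Over all 28853 probe sets 7.27% rose in scrambled, 9.09% in siTNF, 9.01% in siTNF-OMe and 9.35% in siTNF-OMe-P, while 4.45%, 4.71%, 5.81% and 6.58% fell. The median difference of the 9 members was 0.52, 0.59, 0.68 and 0.48 in that order, and the median over all probe sets was -0.03, -0.04, -0.05 and -0.03. The 4 comparisons share the 9 Control arrays, so their counts are not separate pieces of evidence. A member was counted when its limma adjusted p (Benjamini-Hochberg over 28853 probe sets) was under 0.05.

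Values are log2 signals, so a difference of 1 is a doubling of signal, and the level of one probe set cannot be compared with that of another. Whole-tissue RNA cannot tell more cells of a type from more RNA in each cell. Arrays differed in the spread of all their signals, with an SD from 1.55 to 1.89 and no clear break. This SD had an absolute Pearson's r of 0.969 with the first principal component, the largest axis of variation across all arrays. An SD under 1.7, called narrow here, was found on 8 arrays: 4 Control, 1 scrambled, 1 siTNF and 2 siTNF-OMe-P. Without those 8 arrays, 8 of 9 members rose in scrambled, 5 in siTNF, 7 in siTNF-OMe and 7 in siTNF-OMe-P. At that setting 28%, 8.62%, 29.9% and 26.1% of all probe sets rose, against 7.27%, 9.09%, 9.01% and 9.35% with all arrays: the share was larger in every group but siTNF. Arrays were amplified in 3 batches and hybridized in 2. Within hybridization batch 1 and batch 2, all 21 of the called member differences kept their direction, and 8 and 17 of them passed the test there. Within amplification batches 1, 2 and 3, 11 of the 11 that had a value, 21 of 21 and 21 of 21 kept their direction and 6, 16 and 1 passed. The 21 were called on all arrays, including those of each batch, so a kept direction is not separate support. What share of all probe sets passed within each batch is not given here.

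**Figure D1:**
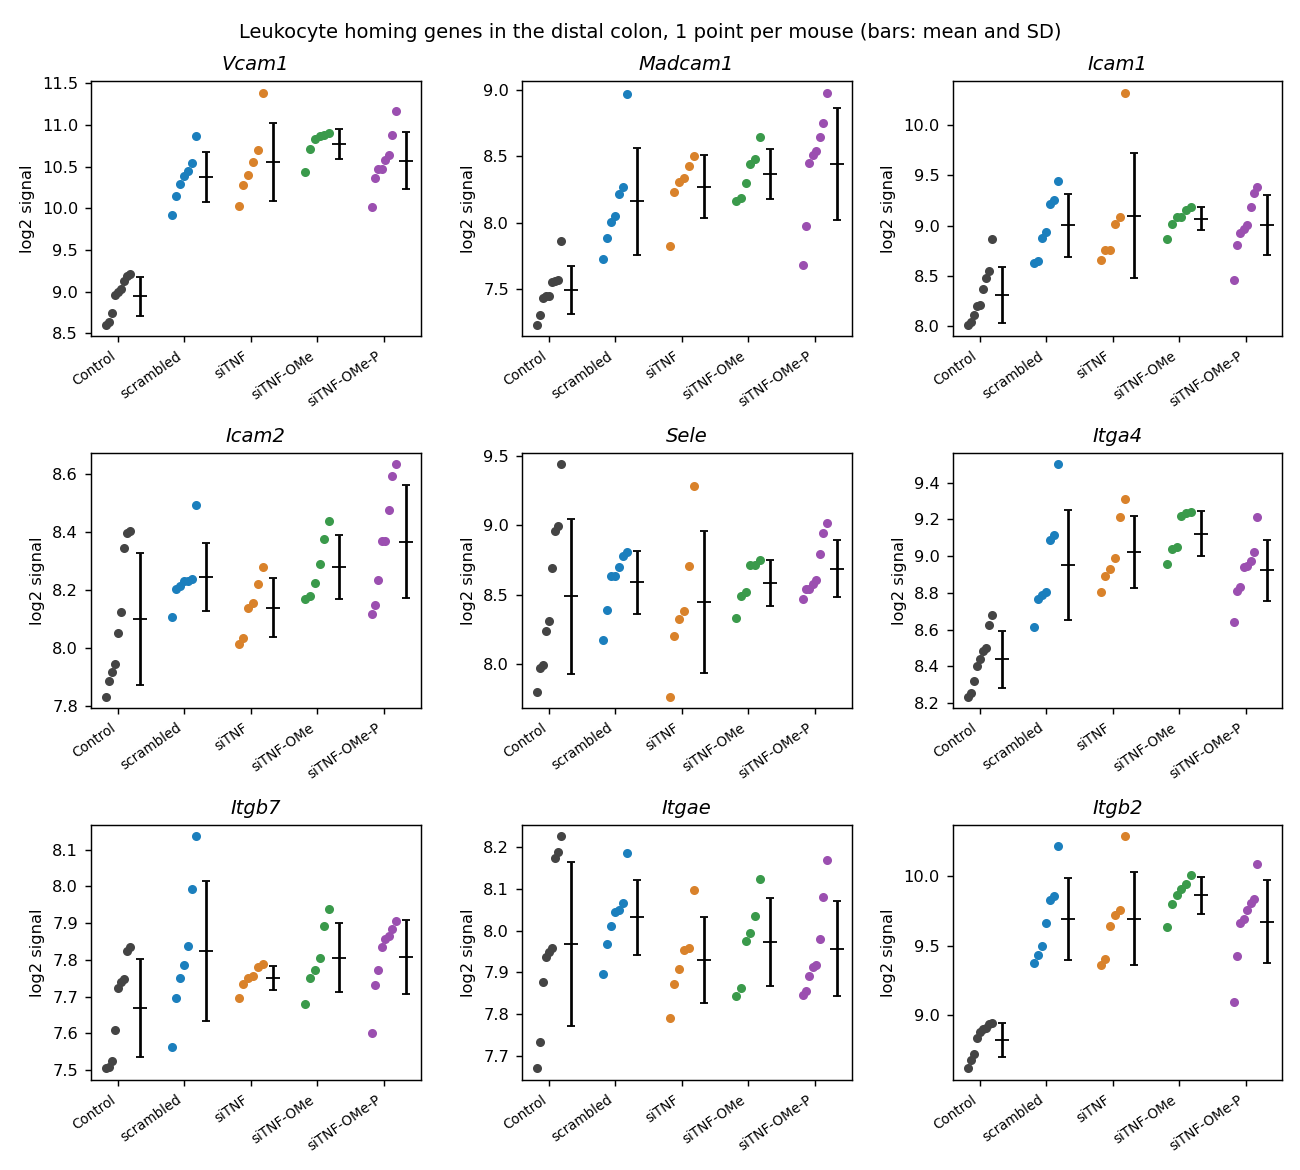
Log2 signal (vertical axis, a scale of its own in each panel) of the 9 measured genes in the 5 groups, with 1 point per mouse and bars for the mean and SD. Vcam1 and Itgb2 leave a gap between the Control mice and all dosed mice, whereas Sele spreads over Control from 7.80 to 9.44 and covers most dosed mice.

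Among the endothelial ligands, Vcam1 differed most from Control. In Control its log2 signal was 8.60 at the lowest, 8.99 at the median and 9.21 at the highest of 9 mice. In scrambled it ran from 9.92 over 10.38 to 10.87 (n = 7), and in siTNF from 10.02 over 10.48 to 11.39 (n = 6). Every mouse of these groups therefore lay above every Control mouse. In siTNF-OMe Vcam1 ran from 10.44 over 10.85 to 10.90 (n = 6), and in siTNF-OMe-P from 10.01 over 10.53 to 11.17 (n = 8). Here too no mouse overlapped with Control. The share of all probe sets without overlap was not computed, so a gap is not shown to be particular to Vcam1 or to the members below. The differences from Control were 1.43 ± 0.154 (SE), 1.63 ± 0.161, 1.81 ± 0.161 and 1.64 ± 0.148 in scrambled, siTNF, siTNF-OMe and siTNF-OMe-P, with limma adjusted p of 5.18e-08, 8.71e-09, 7.02e-10 and 1.13e-09. As folds these are 2.70, 3.09, 3.52 and 3.11. The highest Vcam1 value of all, in siTNF replicate 3, came from one of the 8 narrow arrays.

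Madcam1, the gut vessel ligand of alpha 4 beta 7, had a smaller difference with partial overlap. Its Control values ran from 7.23 over a median of 7.45 to 7.86. The lowest, median and highest values were 7.73, 8.05 and 8.97 in scrambled, 7.83, 8.32 and 8.50 in siTNF, 8.16, 8.37 and 8.65 in siTNF-OMe, and 7.68, 8.52 and 8.98 in siTNF-OMe-P. The siTNF-OMe mice did not overlap with Control, and the other 3 groups each had low mice inside the Control range. The differences were 0.68 ± 0.153, 0.79 ± 0.161, 0.87 ± 0.160 and 0.94 ± 0.148 (SE), with limma adjusted p of 0.00231, 6.41e-04, 1.54e-04 and 1.47e-05. As folds these are 1.60, 1.73, 1.83 and 1.92.

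Icam1, the broad ligand of beta 2 integrins, rose in all 4 groups with overlap. Control mice ran from 8.02 over 8.21 to 8.87. The lowest, median and highest values were 8.63, 8.94 and 9.44 in scrambled, 8.66, 8.89 and 10.32 in siTNF, 8.87, 9.09 and 9.19 in siTNF-OMe, and 8.46, 8.99 and 9.38 in siTNF-OMe-P. Each dosed group reached into the Control range, where Control replicate 4, a narrow array, was the highest. The differences were 0.69 ± 0.165, 0.79 ± 0.173, 0.73 ± 0.173 and 0.69 ± 0.159 (SE), with limma adjusted p of 0.00371, 0.00133, 0.00260 and 0.00181. Without siTNF replicate 3, whose Icam1 value was the 10.32, the siTNF difference was 0.56 with a limma adjusted p of 0.00847.

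Icam2, a ligand of beta 2 integrins on resting endothelium, differed little. Its lowest, median and highest values were 7.83, 8.05 and 8.40 in Control and 8.12, 8.37 and 8.63 in siTNF-OMe-P, with overlap. That difference of 0.26 ± 0.0880 (SE) passed with a limma adjusted p of 0.0353. It did not pass with only both groups in the fit (0.26, 0.227), nor with a replicate block in place of the batch terms (0.24, 0.0629). Leaving out Control replicate 1, 2, 3, 5 or 9 or siTNF-OMe-P replicate 2, 3 or 8 also ended the call, with adjusted p from 0.0529 to 0.0964. In scrambled, siTNF and siTNF-OMe the differences were 0.15 ± 0.0912, 0.05 ± 0.0955 and 0.18 ± 0.0953 (SE), with limma adjusted p of 0.420, 0.778 and 0.273. The medians there were 8.23, 8.15 and 8.26, and all 3 groups overlapped with Control.

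Sele, the selectin of activated endothelium, showed its widest spread in Control. Control mice ran from 7.80 over 8.31 to 9.44, a range that held all scrambled mice (8.17, 8.64 and 8.81 at the lowest, median and highest) and all siTNF-OMe mice (8.33, 8.62 and 8.75). The siTNF mice ran from 7.77 over 8.35 to 9.29 and the siTNF-OMe-P mice from 8.47 over 8.59 to 9.02. The differences from Control were 0.07 ± 0.177, -0.003 ± 0.186, 0.08 ± 0.185 and 0.21 ± 0.171 (SE), with limma adjusted p of 0.899, 0.993, 0.843 and 0.570. The 95% interval for scrambled, -0.29 to 0.43, leaves room for a change of either sign.

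Sele differed between Control arrays of narrow and of wider spread. The 4 narrow Control arrays had Sele values from 8.70 to 9.44 and the other 5 from 7.80 to 8.31, a difference in means of 0.96 with no overlap. Icam2 was also higher on the narrow Control arrays, at 8.13 to 8.40 against 7.83 to 8.05, and Vcam1 was lower, at 8.60 to 8.95 against 8.99 to 9.21. Leaving out the narrow arrays therefore takes away the 4 highest Sele and the 4 highest Icam2 values of Control, which lowers both Control means by construction. Without the 8 narrow arrays of all groups, Sele rose by 0.47 in scrambled, 0.50 in siTNF-OMe and 0.59 in siTNF-OMe-P, with limma adjusted p of 0.00744, 0.00418 and 0.00165. Icam2 then rose by 0.34 in scrambled and by 0.34 in siTNF-OMe (limma adjusted p = 0.00167 and 0.00123). At this setting 50%, 54% and 48% of all probe sets were called in either direction in scrambled, siTNF-OMe and siTNF-OMe-P, against 11.7%, 14.8% and 15.9% with all arrays. With all arrays and the array SD as a covariate, Sele rose in siTNF-OMe-P alone among the 4 groups, by 0.29 (limma adjusted p = 0.0161). In that fit Icam2 rose by 0.19 in scrambled (limma adjusted p = 0.0276), by 0.23 in siTNF-OMe (0.00868) and in siTNF-OMe-P as before, with 25.6%, 29.8% and 32.6% of all probe sets called in these 3 groups.

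**Figure D2:**
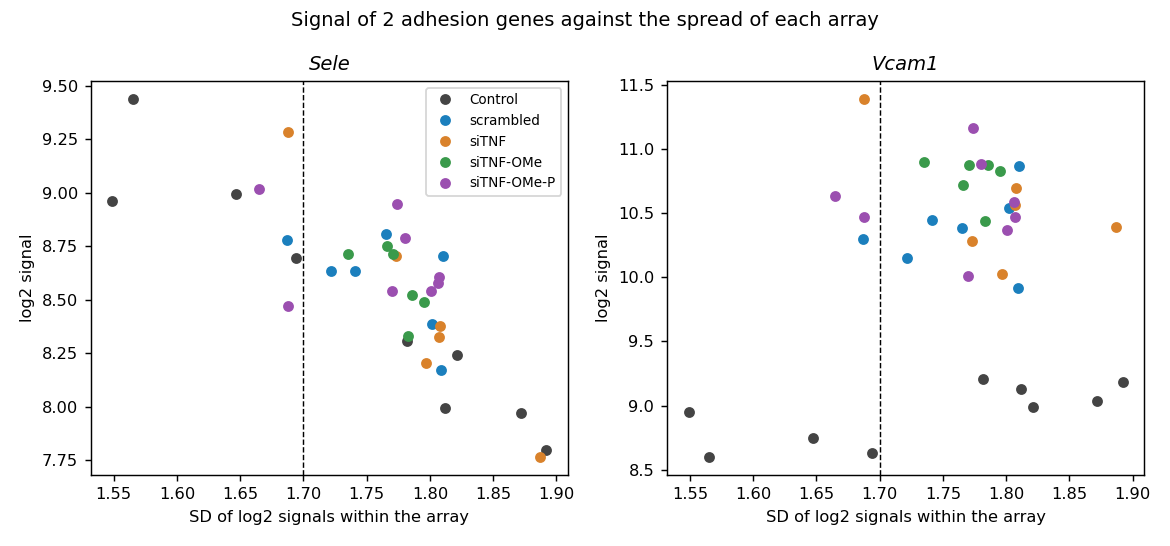
Log2 signal of Sele and Vcam1 (vertical axes) against the SD of all log2 signals on the array (horizontal axis), with 1 point per mouse coloured by group and a dashed line at 1.7. The 4 Control arrays left of the line have the Sele values from 8.70 to 9.44, whereas Vcam1 in Control is 9.21 at most and lies below every dosed mouse on both sides.

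Among the integrin chains on leukocytes, Itgb2, the beta chain of the leukocyte integrins, rose without overlap in all 4 groups. Control mice ran from 8.62 over 8.88 to 8.94. The lowest, median and highest values were 9.37, 9.66 and 10.21 in scrambled, 9.36, 9.68 and 10.28 in siTNF, 9.64, 9.89 and 10.01 in siTNF-OMe, and 9.09, 9.72 and 10.09 in siTNF-OMe-P. Every dosed mouse thus lay above every Control mouse, though how many of all probe sets do the same was not computed. The differences were 0.88 ± 0.115, 0.88 ± 0.120, 1.02 ± 0.120 and 0.84 ± 0.111 (SE), with limma adjusted p of 1.37e-06, 2.64e-06, 1.53e-07 and 1.05e-06. As folds these are 1.84, 1.84, 2.03 and 1.79.

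Itga4, the alpha 4 chain that binds Vcam1 or Madcam1, rose by less. Control mice ran from 8.24 over 8.44 to 8.68. The lowest, median and highest values were 8.61, 8.81 and 9.50 in scrambled, 8.81, 8.96 and 9.31 in siTNF, 8.96, 9.13 and 9.24 in siTNF-OMe, and 8.64, 8.94 and 9.21 in siTNF-OMe-P. The siTNF and siTNF-OMe mice did not overlap with Control, and scrambled and siTNF-OMe-P did with their lowest mice. The differences were 0.52 ± 0.0991, 0.59 ± 0.104, 0.68 ± 0.103 and 0.48 ± 0.0955 (SE), with limma adjusted p of 3.02e-04, 1.08e-04, 1.13e-05 and 3.99e-04.

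Itgb7, the partner of alpha 4 in the gut and of alpha E, did not pass in any of the 4 comparisons with all arrays. Control mice ran from 7.50 over 7.72 to 7.83, and the group medians were 7.79 in scrambled, 7.75 in siTNF, 7.79 in siTNF-OMe and 7.85 in siTNF-OMe-P, all with overlap. The differences were 0.17 ± 0.0636, 0.07 ± 0.0667, 0.14 ± 0.0665 and 0.13 ± 0.0614 (SE), with limma adjusted p of 0.0881, 0.535, 0.185 and 0.161. In scrambled it passed with the array SD as a covariate (0.16, limma adjusted p = 0.0344), with array weights (0.16, 0.0124) and without scrambled replicate 7 (0.20, 0.0376), and in siTNF-OMe-P with array weights (0.15, 0.0314). The upper 95% bounds of the 4 differences with all arrays, 0.30, 0.20, 0.28 and 0.26, lie below the fitted Itga4 difference of the same group. By mean signal Itgb7 lay at percentile 42.8 and Itgae at 47.4 of all probe sets. Among members that rose, Madcam1 lay at 50.4 and Itga4 at 65.8. Whether dimmer probe sets show smaller differences was not tested.

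Itgae, the alpha E chain of lymphocytes in the epithelium, had the smallest differences in 3 of the 4 groups. Control mice ran from 7.67 over 7.95 to 8.23, and the medians of the dosed groups were 8.05, 7.93, 7.99 and 7.92, all with overlap. The differences were 0.05 ± 0.0735, -0.03 ± 0.0769, 0.002 ± 0.0768 and -0.004 ± 0.0709 (SE), with limma adjusted p of 0.787, 0.800, 0.990 and 0.989. Without the narrow arrays, Itgae passed in scrambled at 0.21 (limma adjusted p = 0.0130), where 50% of all probe sets passed and the median of all was 0.07. With array weights it passed at 0.19 in scrambled (limma adjusted p = 0.00298) and 0.13 in siTNF-OMe (limma adjusted p = 0.0480), where 56.4% and 47.7% of all probe sets passed.

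**Figure D3:**
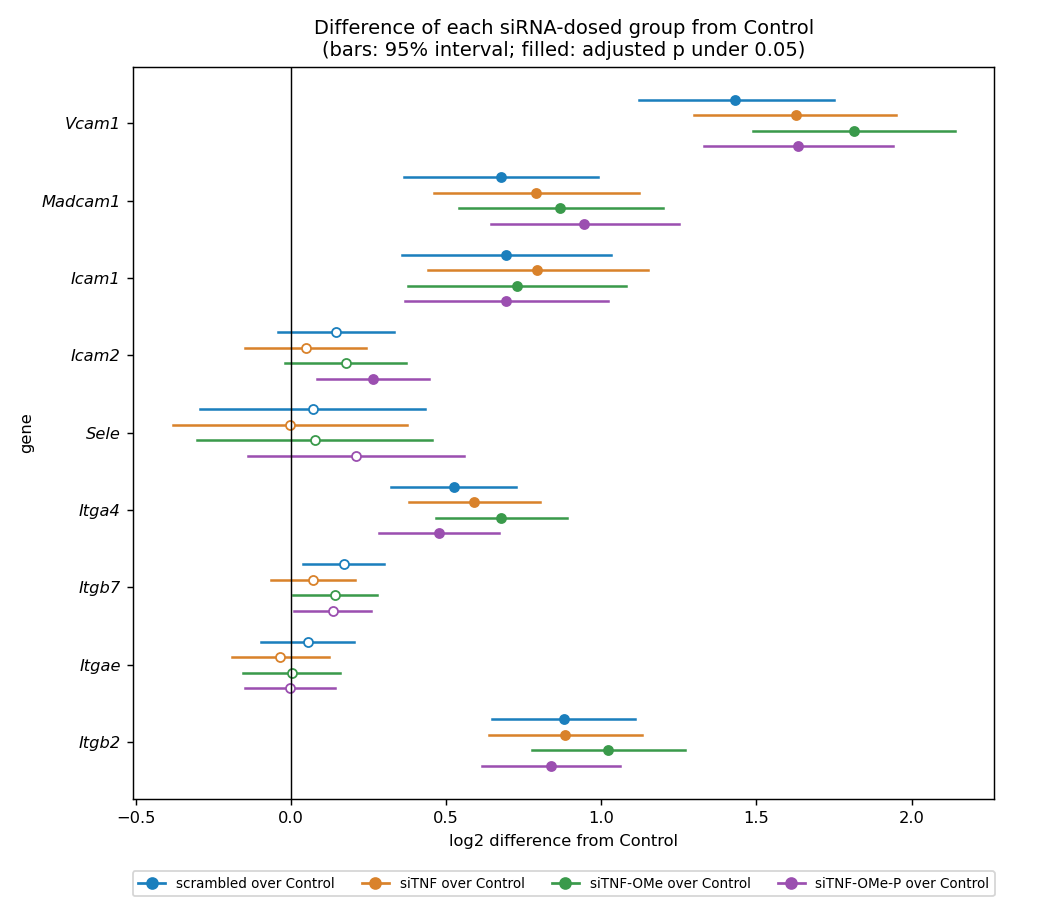
Log2 difference of each dosed group from Control (horizontal axis) for the 9 genes, with points for the limma estimate, bars for its 95% interval and filled points where the adjusted p was under 0.05. All 4 points of Vcam1, Madcam1, Icam1, Itga4 and Itgb2 are filled, and those of Sele, Itgb7 and Itgae are open.

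Whether members changed by unequal amounts was tested within arrays, where the difference between 2 members cancels a shift common to the array but not a change in its spread. The 4 pairs were chosen after the values were seen, and exact permutation of the group labels was adjusted over 16 tests. Vcam1 rose more than Icam1, by 0.75, 0.84, 1.08 and 0.94 in scrambled, siTNF, siTNF-OMe and siTNF-OMe-P (exact permutation adjusted p = 0.00107, 0.00128, 0.00107 and 0.00107). Within Control, however, Vcam1 minus Icam1 was lower by 0.752 on the 4 narrow arrays than on the other 5, and without the narrow arrays of all groups, an alternative chosen after seeing the data, the changes were 0.40, 0.58, 0.75 and 0.70 (exact permutation adjusted p = 0.0115, 0.0115, 0.00866 and 0.00866). Icam1 rose more than Icam2, by 0.54, 0.74, 0.57 and 0.42 (exact permutation adjusted p = 0.00128, 0.00107, 0.00107 and 0.00107). Itga4 rose more than its partner Itgb7, by 0.36, 0.50, 0.55 and 0.35 (exact permutation adjusted p = 0.00233, 0.00128, 0.00128 and 0.00168). Itgae and Itgb7 differed in change by -0.09, -0.12, -0.13 and -0.15, with exact permutation adjusted p from 0.233 to 0.475. Without the narrow arrays Icam1 minus Icam2 changed by 0.40 to 0.56 and Itga4 minus Itgb7 by 0.37 to 0.55 (exact permutation adjusted p = 0.00866 to 0.0115), and Itgae minus Itgb7 by -0.003 to 0.06 (exact permutation adjusted p = 0.790 to 0.974). The adjustment over 16 tests does not cover the choice of pairs from values already seen, so these p-values are not separate support. The differences describe unequal change in the log2 signals of a pair and not which of its genes stayed level.

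The second question was whether the siRNAs against Tnf, with or without chemical modification, differed from scrambled siRNA or from each other in these genes. None of the 9 members passed in any of the 6 comparisons among dosed groups, where limma called 0% of all probe sets. At an unadjusted p under 0.05 the 9 members gave 1 value in siTNF-OMe over scrambled, 1 in siTNF-OMe-P over siTNF and 0 in each of the other 4 comparisons. The first was Vcam1, at 0.38 ± 0.170 (SE, 95% interval 0.04 to 0.73, unadjusted p = 0.0312, limma adjusted p = 1). The second was Icam2, at 0.22 ± 0.0982 (0.02 to 0.42, unadjusted p = 0.0346, limma adjusted p = 0.974). Across all probe sets the unadjusted count ran from 74 to 1002 in the 6 comparisons, against 1442.65 that an unadjusted threshold of 0.05 gives by chance.

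The order of the Vcam1 means was Control, scrambled, siTNF, siTNF-OMe-P and siTNF-OMe. Between neighbours among the dosed groups, the 95% interval of each difference held values of either sign. For siTNF over scrambled the Vcam1 difference was 0.19 with a 95% interval from -0.15 to 0.54. For siTNF-OMe-P over scrambled it was 0.20, from -0.12 to 0.53. Icam1, also an inducible ligand, differed from scrambled by 0.10 in siTNF (-0.27 to 0.47), by 0.04 in siTNF-OMe (-0.34 to 0.41) and by -0.0004 in siTNF-OMe-P (-0.35 to 0.35). Madcam1 was higher than scrambled in the means of all 3, by 0.11 (-0.23 to 0.46), 0.19 (-0.15 to 0.54) and 0.27 (-0.06 to 0.59). Intervals of this width do not show that the siRNAs acted alike.

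The modified siRNAs were also set against the unmodified one and each other, over 9 genes and 3 pairs of groups. With O-methyl nucleotides, siTNF-OMe differed from siTNF by between -0.06 (Icam1) and 0.19 (Vcam1). With O-methyl-propanediol, siTNF-OMe-P differed from siTNF by between -0.11 (Itga4) and 0.22 (Icam2). Between siTNF-OMe-P and siTNF-OMe the differences ran from -0.20 (Itga4, 95% interval -0.42 to 0.02) to 0.13 (Sele, -0.26 to 0.52). The smallest limma adjusted p over these 3 pairs of groups was 0.974.

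**Figure D4:**
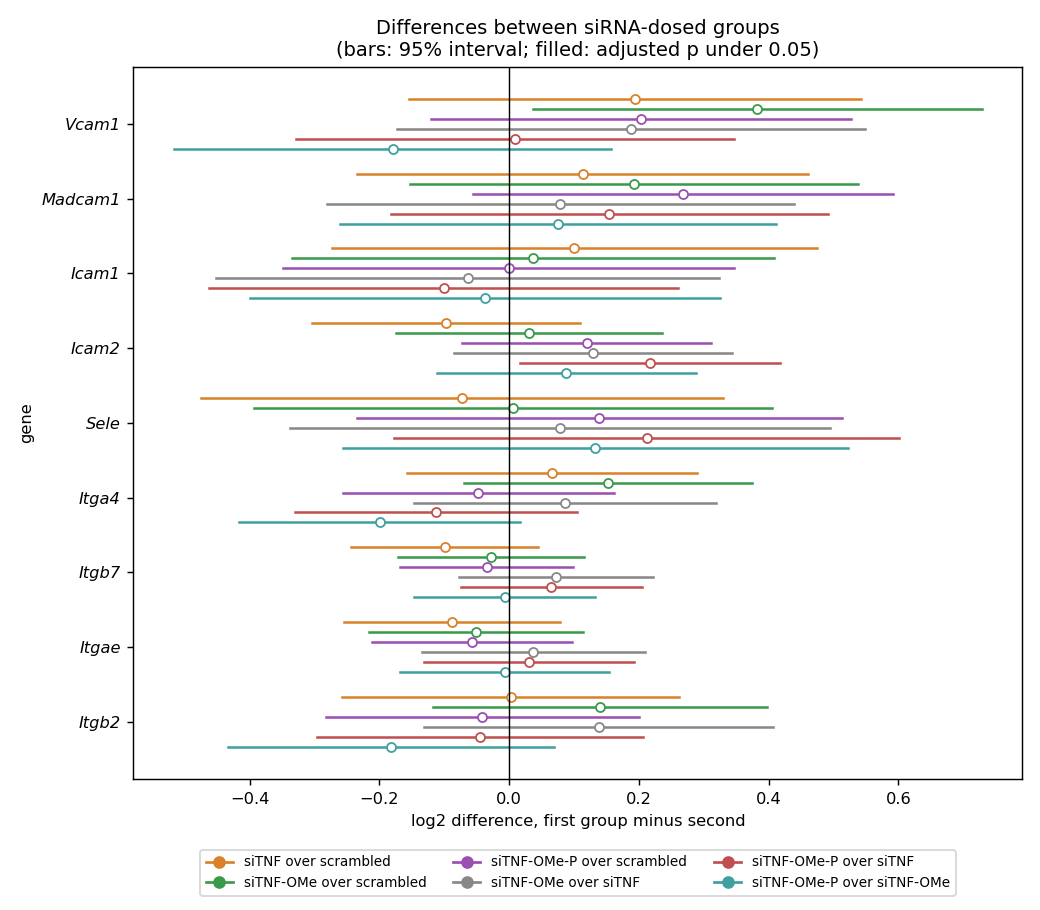
Log2 difference between dosed groups (horizontal axis, first group minus second) for the 9 genes in 6 comparisons, with points for the limma estimate and bars for its 95% interval. No point is filled, since no adjusted p was under 0.05, and only the bars of Vcam1 in siTNF-OMe over scrambled and of Icam2 in siTNF-OMe-P over siTNF stay clear of 0.

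Among the 27 dosed mice the members were also set against the activity of myeloperoxidase (MPO), an enzyme carried by neutrophils, and against colon length as labelled. Control, left out here, had MPO activity from 0.009 to 0.088 U per mg and labelled lengths from 7.2 to 8.1. The dosed mice had 0.031 to 1.35 U per mg and lengths from 5.2 to 7.1. Of 18 relations, 1 passed: Itgb7 with MPO activity, at Pearson's r = 0.592 (permutation adjusted p = 0.0241), with Spearman's rho = 0.328 (permutation adjusted p = 0.416). Without the 2 mice farthest from the median MPO activity r was 0.322, and within hybridization batches 1 and 2 it was 0.760 and 0.0306. Within amplification batches 1, 2 and 3 it was 0.768, 0.595 and 0.170. The relation of Itgb7 rests on those mice.

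Icam1 had r = 0.512 with MPO activity, which missed the threshold (permutation adjusted p = 0.0529), and rho = 0.686, which passed (permutation adjusted p = 0.00306). Without the 2 farthest mice its r was 0.49. Within hybridization batches 1 and 2 the Icam1 r was 0.451 and 0.433, and within amplification batches 1, 2 and 3 it was 0.708, 0.555 and 0.445. Itgb2 had r = 0.497 (permutation adjusted p = 0.0529) and rho = 0.472 (permutation adjusted p = 0.129). Itga4 had r = 0.465 (permutation adjusted p = 0.0651), and 0.183 without the 2 farthest mice. Vcam1, whose difference from Control was the largest of the 9, had r = 0.303 and rho = 0.294 (permutation adjusted p = 0.410 and 0.416). With colon length the 9 values of r ran from -0.295 (Madcam1) to 0.184 (Icam2), and 0 passed.

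**Figure D5:**
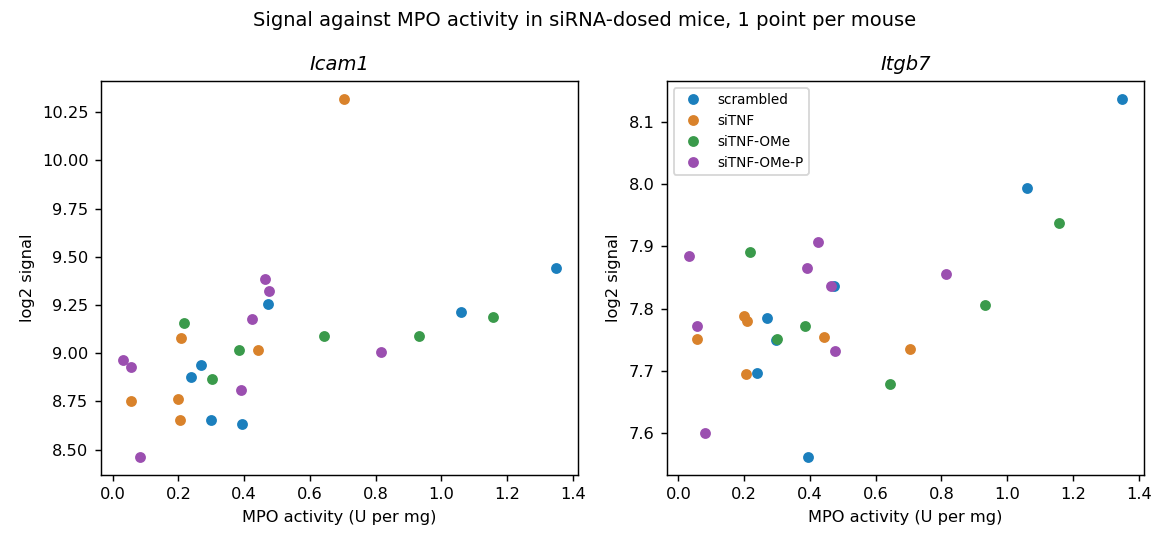
Log2 signal of Icam1 and Itgb7 (vertical axes) against MPO activity in U per mg (horizontal axis) in the 27 dosed mice, with 1 point per mouse coloured by group. The Itgb7 points rise mainly through the mice at high MPO activity, where scrambled replicate 2 has 1.35 U per mg, and the Icam1 points rise across the range with siTNF replicate 3 at 10.32.

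Levels of most members correlated across the 27 dosed mice. Of 36 pairs of members, 20 passed by Pearson's r with a permutation p adjusted over 36, all positive. The closest was Vcam1 with Itgb2, at r = 0.867 and rho = 0.844 (permutation adjusted p = 1.20e-04 and 3.60e-04). It was 0.819 without the 2 farthest mice, 0.920 and 0.761 within hybridization batches, and 0.676, 0.885 and 0.960 within amplification batches. Vcam1 with Icam1 had r = 0.767 and rho = 0.677 (permutation adjusted p = 1.20e-04 and 0.00228), 0.655 without the 2 farthest mice, 0.888 and 0.525 within hybridization batches, and 0.676, 0.759 and 0.879 within amplification batches. The unadjusted p of 1e-05 behind both values of r is the smallest that the permutations can give. Itgae was in none of the 20 pairs, and its r with the other 8 members ran from -0.284 (Madcam1) to 0.141 (Sele). By Spearman's rho, Icam1 and Icam2 with Sele, Madcam1 with Itga4, and Itga4 with Itgb7 did not pass. Nor did Itgb2 with Madcam1 or with Itgb7 (permutation adjusted p from 0.0514 to 0.216 over these pairs). Icam1 with Itga4 and with Itgb7 passed by rho alone (permutation adjusted p = 0.0302 and 0.0265). With the array SD regressed out, r was 0.888 for Vcam1 with Itgb2 and 0.776 for Vcam1 with Icam1. For Icam2 with Sele, one of the 20 pairs, it went from 0.431 to 0.246. How often pairs of other genes correlate in these mice was not computed, so the count is not shown to be particular to these members.

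Markers of the cells that carry these molecules moved in the same comparisons. All 6 pan-leukocyte markers rose in each dosed group, with median differences of 0.71, 0.73, 0.89 and 0.78, and their mean log2 signal was 8.72 to 9.85 over Control mice and 9.64 to 10.67 over dosed mice. Of 12 blood endothelium markers, 7, 10, 9 and 9 rose in scrambled, siTNF, siTNF-OMe and siTNF-OMe-P, with medians of 0.54, 0.55, 0.69 and 0.63. Their mean was 8.23 to 8.73 in Control and 8.74 to 9.51 in dosed mice. Of 12 macrophage and monocyte markers, 11, 12, 12 and 11 rose, with medians of 1.17, 1.27, 1.42 and 1.25 and means of 8.68 to 9.73 in Control against 10.33 to 11.06. Over all probe sets 7.27%, 9.09%, 9.01% and 9.35% rose in the same order of groups. The part of cell numbers in the member differences was not tested.

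Of 9 measured T cell markers, 1 rose in each group and 0 fell, and that marker was Cd4. Of 5 B cell markers 0 rose, and 3, 3, 3 and 1 fell. Of 10 neutrophil markers 3, 5, 5 and 5 rose, of 6 dendritic cell markers 1, 0, 0 and 1, and of 6 mast cell markers 0 rose and 0, 1, 0 and 0 fell. Of 10 colon epithelium markers 2, 2, 2 and 1 rose and 0, 0, 2 and 1 fell, and all 6 smooth muscle markers rose in each group. Over all probe sets 7.27% to 9.35% rose and 4.45% to 6.58% fell in the 4 groups. Counts of 0 or 1 in lists this short cannot be told from such shares. The mean log2 signal of the epithelium list was at least 11.62 and that of the smooth muscle list at least 11.87 in every mouse, as colon tissue would give. The log2 scale has no 0, but 2 T cell, 3 B cell, 5 neutrophil, 3 dendritic cell and 4 mast cell markers lay in the dimmest 40% of probe sets.

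A wider list of 63 homing genes, of which 61 were measured, was set beside the members. Over Control 23, 25, 28 and 25 rose and 2, 2, 4 and 5 fell in scrambled, siTNF, siTNF-OMe and siTNF-OMe-P, with median differences of 0.20, 0.22, 0.26 and 0.19. Over all probe sets 7.27%, 9.09%, 9.01% and 9.35% rose and 4.45%, 4.71%, 5.81% and 6.58% fell in that order. Among the dosed groups limma called 0 of 61 in all 6 comparisons. By role, 7, 8, 8 and 8 of 15 endothelial ligands and junction genes rose, 7, 6, 7 and 7 of 11 other integrin chains, and 4, 6, 7 and 5 of 10 genes that activate integrins. Of 14 homing chemokines and receptors 4 rose in each group and 1, 1, 1 and 2 fell. Of 4 measured genes for the leukocyte selectin and its ligands, 1, 1, 2 and 1 rose and 1 fell in each. Of 7 enzymes that build selectin ligands 0 rose and 0, 0, 2 and 2 fell.

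In scrambled over Control the rise with the smallest p in that list was Itga5, the alpha 5 chain of a fibronectin receptor, at 1.31 ± 0.159 (SE, limma adjusted p = 4.26e-07). Mcam, an endothelial adhesion molecule, rose by 0.78 ± 0.10 (1.13e-06) and Pecam1, a junction molecule through which leukocytes pass, by 0.67 ± 0.0907 (limma adjusted p = 2.55e-06). S1pr1, the receptor that guides lymphocytes out of tissue and steadies endothelium, rose by 0.79 ± 0.130 (limma adjusted p = 4.52e-05). The 2 genes that fell were Cd24a, a surface protein of epithelium and leukocytes that binds P-selectin, by -0.37 ± 0.0545 (limma adjusted p = 9.19e-06), and Ccl25, a chemokine that draws lymphocytes to the small intestine, by -0.23 ± 0.0691 (limma adjusted p = 0.0242). The Ccl25 call was lost without the narrow arrays (-0.14, limma adjusted p = 0.120), with array weights, within either hybridization batch, within amplification batches 2 and 3, with only both groups in the fit, and without Control replicate 1 or 8 or scrambled replicate 1 or 4. All 6 of these genes passed in the same direction in the other 3 comparisons with Control, which share its arrays.

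Genes with the pattern most like each member were found over the 36 arrays by Pearson's r after the array SD was regressed out, a description across arrays that share group, batch and scaling. For Vcam1 they were Rab8b, Cd93 and Plekho2, at r = 0.979, 0.977 and 0.974. For Itgb2 they were Slc15a3, Ncf1 and Plek (0.973, 0.966 and 0.966), for Icam1 Hcls1, Tnfaip2 and Slc15a3 (0.954, 0.950 and 0.943), and for Itga4 Nckap1l, Bcl2a1c and Myo1g (0.932, 0.906 and 0.906). Cd93 is known from endothelial and myeloid cells, Ncf1 is a subunit of the phagocyte oxidase and Nckap1l a cytoskeletal regulator of blood cells. Over the 27 dosed mice alone the first of each were at 0.920, 0.925, 0.905 and 0.817.

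For Madcam1 the nearest were Adcy4, Cyth4 and Pitpnc1 (0.899, 0.886 and 0.884), for Icam2 Tll1, Dubr and Dlg4 (0.865, 0.828 and 0.825), for Sele Cxcr2, Hdc and AW551984 (0.863, 0.855 and 0.826), and for Itgb7 Traf1, Slfn10-ps and Ciita (0.804, 0.799 and 0.788). Cxcr2 is a chemokine receptor of neutrophils, Hdc makes histamine and Ciita drives class II antigen presentation genes. Itgae had no close pattern by this measure, with Olfr1145, Ly6g2 and Rnase6 at 0.604, 0.601 and 0.596.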

How the data were processed

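RNA of 36 mouse colons was hybridized to 1 Affymetrix array each, in 3 amplification and 2 hybridization batches, per the labels' protocols from 25 ng RNA. The authors deposited log2 probe set signals, made with RMA and Partek per the submitters' processing notes. Versions and any batch removal are not given in the sources used here. Signals ran from 4.95 to 14.1, and precision is set by how many arrays there are. The platform annotation assigns 1 gene to 21789 of 28853 probe sets, several to 1621 and none to 5443. None was filtered out.

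Group and both batch factors entered a linear model fitted to all probe sets and arrays with limma 3.58.1 in R 4.3.3 (empirical Bayes with trend, 28 residual degrees of freedom, two-sided, Benjamini-Hochberg threshold 0.05). A trial on simulated data used independent noise without batch effects or differences in array spread, so it does not cover those features of these arrays. Relations used 100000 two-sided permutations (SciPy 1.17.1). Nothing in the labels says that replicates are independent beyond their titles, so p-values measure the spread between these mice.

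The rule names all 10 members, up to 4 risen and 4 fallen genes of the homing list in scrambled over Control, and the 3 genes most like each member. Members, lists, tests and the limit of 1.7 on array SD were chosen with earlier results of these data known. Alternatives changed batch terms, scaling, moderation, weights, filter and arrays.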

Additional observations from a re-analysis of the deposited data

Results flagged for a closer look

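In 45 sets of values (9 genes in 5 groups) the highest or lowest mouse was set against the rest of its group by Dixon's ratio, which flags about 1 in 20 such sets by chance, and 2 mice stood apart. Icam1 in siTNF replicate 3 was 10.32, the highest of its group. Without this mouse Icam1 in siTNF over scrambled was -0.13 (limma adjusted p = 0.897) in place of 0.10 (limma adjusted p = 1). Icam2 in scrambled replicate 2 was 8.49, the highest of its group, and without this mouse the difference from Control was 0.10 (limma adjusted p = 0.732) in place of 0.15 (limma adjusted p = 0.420).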

How the results depend on the processing

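The counts of called members over Control (5, 5, 5 and 6 in scrambled, siTNF, siTNF-OMe and siTNF-OMe-P) moved by over 1.5 times in these settings. For scrambled the count was 8 without the arrays of SD under 1.7, 9 with array weights (0.0587 to 5.49), where 50% and 56.4% of all probe sets were called against 11.7%, 2 and 3 within hybridization batches 1 and 2, and 0 within amplification batch 3. For siTNF it was 2 within hybridization batch 1, 2 within amplification batch 1 and 0 within amplification batch 3. For siTNF-OMe it was 8 with array weights (47.7% of all probe sets called against 14.8%), 2 within hybridization batch 1 and 1 within amplification batch 3. For siTNF-OMe-P it was 2 within hybridization batch 1 and 0 within amplification batch 3. Batches hold fewer arrays, and the cause of the other moves was not tested. With each array left out in turn the counts were 5 to 6, 5, 5 and 5 to 6. Sele in siTNF over Control changed sign with array weights, to 0.33 (limma adjusted p = 0.0233). In the 6 comparisons among dosed groups 0 members were called in every setting tried.

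The 1 called relation to MPO activity or colon length became 5 with values centred on their group mean, 0 with log2 of MPO activity, 4 with array SD regressed out, 0 without the 2 farthest mice and 2 without the arrays of SD under 1.7. It was 0 within hybridization batch 1, 0 within hybridization batch 2, 0 within amplification batch 2 and 0 within amplification batch 3.

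With a replicate block in place of the batch terms the counts over Control were 5, 5, 5 and 5, with Icam2 in siTNF-OMe-P the member lost, and no other member changed its call. Of 64 pairs of arrays with the same number 32 had a correlation of their deviations over 0.1 (-0.697 to 0.868, median 0.124). Pairs with different numbers were not set beside them. Within each group the numbers also run in order of amplification batch, so whether the numbers pair the mice cannot be told. The mean of all probe sets of a gene equals the reported value, since each member has 1. Of the 21 called differences, 1 kept its call in all 16 settings and 36 left-out arrays that gave it a value: Vcam1 in siTNF-OMe over Control.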

Other observations

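Single mice stood at the end of their group for many members. Scrambled replicate 2, with an MPO activity of 1.35 U per mg, was the highest of 7 mice for 7 of the 9 members. In siTNF replicate 3, with 0.703 U per mg and a narrow array (SD 1.69), 5 members were the highest of 6 mice. In siTNF-OMe-P replicate 7, with 0.082 U per mg, 7 members were the lowest of 8 mice.

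The genes that follow were named after their values were seen, and differences between the 4 comparisons with Control were not tested. Fut4, a fucosyltransferase of selectin ligands, differed from Control by -0.68, -0.38, -0.90 and -0.999 in scrambled, siTNF, siTNF-OMe and siTNF-OMe-P (limma adjusted p = 0.0509, 0.358, 0.00775 and 0.00127). St3gal4, a sialyltransferase, differed by -0.32, -0.43, -0.70 and -0.49 (limma adjusted p = 0.329, 0.136, 0.00695 and 0.0442). The chemokine receptor Cxcr4 rose in all 4, by 0.75, 0.89, 1.26 and 1.13 (limma adjusted p = 1.24e-04, 1.92e-05, 4.63e-08 and 6.70e-08), and its ligand Cxcl12 by 0.77, 0.93, 1.17 and 1.00 (limma adjusted p = 1.43e-04, 1.71e-05, 3.07e-07 and 1.02e-06). Ccl28, a chemokine of mucosal epithelium, differed by -0.19, -0.45, -0.46 and -0.64 (limma adjusted p = 0.698, 0.190, 0.166 and 0.0209).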
